A study of Homo sapiens with 24 samples.

Results

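The experiment compared 22Rv1 cells exposed to KB05, a small molecule known here by its code name, with cells that received the vehicle DMSO. It comprises 6 of the 24 libraries of the series, 3 of KB05 and 3 of DMSO. 22Rv1 is an established line of human prostate carcinoma. Cells were treated with 200 µM KB05 or with vehicle for 1 h and then kept in fresh medium for 2 h, so RNA was taken at 3 h. The count columns carry a 2h tag, read here as the time in fresh medium. A second code-named compound, KB02, was given at the same dose and time in 3 further libraries and served here only to show which responses were greater with KB05. The treatments were done as biological triplicates, per the labels. The question addressed is which transcripts respond to KB05 and which of these responses KB02 does not give to the same extent.

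Cells answer damage to their proteins with the heat shock response, in which heat shock factors switch on chaperone genes of the HSP70, HSP110, DNAJ and small heat shock families. A parallel programme run by NRF2, which the KEAP1 and CUL3 ubiquitin ligase keeps low in resting cells, supports glutathione, thioredoxin and haem metabolism. Immediate-early genes such as the AP-1, EGR and NR4A factors are switched on within minutes by MAP kinases and serum response factor and are turned off again by feedback phosphatases. Their transcripts are made and lost quickly.

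The 6 libraries held 15506975 to 19617207 counts with KB05 and 17565188 to 19830340 with DMSO. Of 60232 genes in the table, 18379 had enough counts to be tested. Levels are given as CPM, counts relative to the library total after scaling for composition, in the order of replicates 1, 2 and 3. CPM is not corrected for gene length and is compared only within a gene. Prostate luminal markers were present, with a summed level of 3460 to 3790 CPM in DMSO and 3970 to 4040 CPM in KB05. Of 22 markers of other cell types, 13 had enough counts to be tested, with summed levels of 272 to 322 CPM in DMSO and 241 to 271 CPM in KB05. COL1A1 alone rose among them and SYP alone fell. CDH5 and VWF of endothelium and KRT5 of basal cells were at 0 counts in all 6 libraries. Other markers of these cell types were not all at 0. PECAM1 of endothelium had 4, 12 and 12 counts in DMSO and 7, 5 and 2 in KB05. KRT14 and TP63 of basal cells had 0 to 3 counts. PTPRC of leukocytes had 217, 242 and 306 counts in DMSO and 233, 186 and 193 in KB05. In bulk RNA a change in the number of cells and a change in RNA per cell cannot be told apart.

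KB05 changed 7321 of 18379 genes at an adjusted p below 0.05. Of these, 3434 were higher than in DMSO (18.7% of genes tested) and 3887 were lower (21.1%). Large changes leaned upward, with 913 genes at least 2-fold higher (4.97%) and 496 at least 2-fold lower (2.7%); a minimum count of 30 left 594 and 345. The 3 KB05 libraries did not overlap the 3 DMSO libraries in 7019 of the 7321 called genes (95.9%) and in 9034 of all 18379 genes tested. Calls and overlap rest on the same values, so the first share is no separate support for the calls. The median log2 fold change of all tested genes was 0.00. Set directly against KB02, 3998 genes were higher with KB05 (21.8%) and 3348 were lower (18.2%), and the median of all genes in that contrast was 0.06. Scaling by library size alone moved that median to -0.06 and the split to 2695 higher and 4518 lower, so small differences from KB02 depend on the scaling.

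A response was counted as exceeding that of KB02 where a gene differed in the same direction from DMSO and from KB02. By this rule 1211 genes were higher than in both (6.59%), of which 366 were at least 2-fold higher than each (1.99%). A further 1358 genes were lower than in both (7.39%), of which 222 were at least 2-fold lower (1.21%). Scaling by library size alone gave 830 higher and 1537 lower than both. The comparisons of KB05 and of KB02 with vehicle share the same DMSO libraries, so their values are set side by side and no similarity between them is computed.

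**Figure D1:**
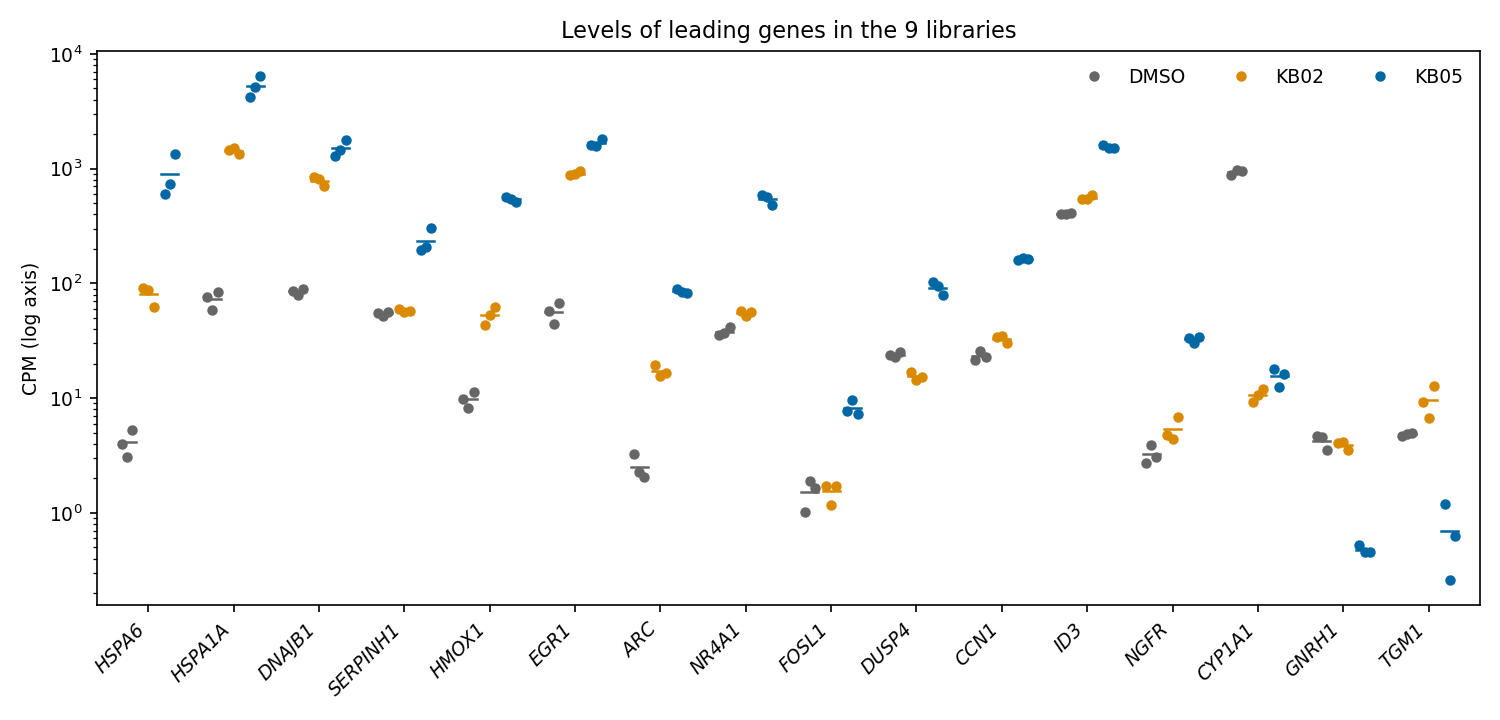
Levels of 16 genes in each of the 9 libraries, as CPM on a log axis. Each point is 1 library of DMSO, KB02 or KB05 and the bar is the mean of 3. HSPA6 lies at 3.05 to 5.29 CPM in DMSO and 599 to 1340 CPM in KB05, NR4A1 and DUSP4 stand apart in the KB05 libraries, and GNRH1 and TGM1 are lowest there.

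Stress-inducible chaperones were among the strongest rises. HSPA6, an HSP70 gene that is nearly silent without stress, was at 4.02, 3.05 and 5.29 CPM in DMSO and at 599, 737 and 1340 CPM in KB05. KB05 libraries were all far above those of DMSO and of KB02, where it was at 91.6, 87.5 and 62.8 CPM, and differed among themselves by more than the other groups did. The log2 fold change from DMSO was 7.77 ± 0.49 (SE, 219-fold, adjusted p = 2.8e-05), and the direct difference from KB02 was 3.46 ± 0.36 (adjusted p = 0.000356). HSPA6 (ENSG00000173110.8) is a single-exon gene on chromosome 1 from 161524540 to 161526910 (GRCh38), and 1 annotated gene without a symbol overlaps it on the same strand, so reads may be shared. In the same family, HSPA1A rose by 6.17 on the log2 scale and HSPA1B by 4.87, although these near-identical genes share reads and their split is uncertain. All HSP70 and HSP110 genes together took 0.127% to 0.143% of counts in DMSO, 0.738% to 0.809% in KB02 and 1.56%, 1.81% and 2.06% in the KB05 libraries. KB05 replicate 3 was the highest and replicate 1 the lowest, without overlap with either group.

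Of 12 HSP70 and HSP110 genes, 9 rose with KB05 and 1 fell, with a median log2 fold change of 1.24 for KB05 and 0.81 for KB02. Of these, 6 rose beyond KB02. HSPA8, the constitutive family member that folds nascent proteins, went from 786, 733 and 733 CPM to 2120, 2390 and 2390 CPM (log2 fold change 1.62 ± 0.07, adjusted p = 2.46e-17) and exceeded KB02 by 0.59. HSPH1, the HSP110 nucleotide exchange factor, went the other way in the direct comparison. It rose by 2.92 ± 0.08 with KB05 and by 3.33 with KB02, a direct difference of -0.41 (adjusted p = 3.74e-05). HSPA14, which works with ribosomes, fell by 0.57 and was 0.37 higher with KB02 than with DMSO.

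DNAJ proteins hand substrates to HSP70. Of 22 measured, 13 rose and 3 fell with KB05, and the same numbers did with KB02, with medians of 0.45 and 0.32. Set directly against KB02, 7 were higher and 6 lower with KB05, with a median of 0.07 (-0.05 with scaling by library size alone). DNAJB1, the inducible cytosolic partner of HSP70, stood at 86, 80 and 89.7 CPM in DMSO, 840, 812 and 702 CPM with KB02 and 1280, 1460 and 1770 CPM in KB05. The groups did not overlap, and the log2 fold change was 4.14 ± 0.12 against DMSO and 0.94 ± 0.10 against KB02. DNAJA4 and DNAJB5 also exceeded KB02, by 1.05 and 0.83, whereas DNAJB4 rose by 2.63 with KB05 and 3.04 with KB02 and was lower with KB05 in the direct test (adjusted p = 0.000197). DNAJC12, a co-chaperone of aromatic amino acid hydroxylases, rose by 0.82 ± 0.16 (adjusted p = 0.000123) where KB02 gave -0.17.

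Of 11 small heat shock and BAG genes measured (of 16 listed), 8 rose and 2 fell, with a median of 0.68. HSPB1, a small heat shock protein that holds unfolded clients, was at 591, 652 and 664 CPM in DMSO, 866, 868 and 982 CPM with KB02 and 1660, 1750 and 1890 CPM in KB05. HSPB8, the partner of BAG3 in chaperone-assisted autophagy, rose by 0.92 ± 0.15 (adjusted p = 8.31e-06), and its KB02 value was 0.04. BAG3 itself rose by 2.79 with KB05 and 2.36 with KB02. Among 18 genes of the HSP90 system 13 rose and none fell, but the median was 0.37 for KB05 and 0.53 for KB02, and in the direct contrast 2 were higher and 6 lower. HSP90AA1, the inducible HSP90, exceeded KB02 by 0.39, while STIP1, the adaptor between HSP70 and HSP90, rose by 0.43 with KB05 and 0.86 with KB02.

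A chaperone outside these lists separated the compounds further. SERPINH1, also called HSP47, assists collagen folding in the endoplasmic reticulum and is a known heat shock target. It was at 55.7, 51.9 and 56.8 CPM in DMSO, at 59.8, 56.3 and 58 CPM with KB02 and at 194, 209 and 303 CPM in KB05. KB02 and DMSO libraries lay close together, and the 3 KB05 libraries were all well above them. The log2 fold change was 2.10 ± 0.17 for KB05 (adjusted p = 2.98e-05) and 0.08 for KB02 (adjusted p = 0.731). SERPINH1 (chromosome 11, 75562056 to 75572783) was singled out after its values were seen. Of 17 chaperonin and prefoldin genes 7 rose and 1 fell, with a median of 0.09, and HSPE1, the mitochondrial co-chaperonin, rose by 0.68 ± 0.10 where KB02 gave -0.20.

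Promoter windows of 250 bases upstream of annotated starts (RefSeq, GRCh38.p14) were searched on both strands for the heat shock element, written GAANNTTC or TTCNNGAA. At least 1 match was present in 9.1% of 17972 windows of tested genes, in 6 of 13 HSP70 and HSP110 windows (46.2%), in 4 of 11 small heat shock and BAG windows (36.4%), in 5 of 29 DNAJ windows (17.2%) and in 3 of 22 windows of the HSP90 system (13.6%). A longer form with 3 alternating units stood in 0.317% of all windows and in 2 of 13 HSP70 and HSP110 windows (15.4%). It was in 3 of 22 windows of the HSP90 system (13.6%), in 1 of 29 DNAJ windows (3.45%) and in 0 of 11 small heat shock and BAG windows. The windows of 4 genes that rose more with KB05 than with KB02 are printed 5′ to 3′ on the gene's strand, with matches in capitals; adjoining matches share letters. HSPA6 and SERPINH1 hold the longer form. Offsets count from the start, and a match describes the letters only.
HSPA6 (chr1:161524290-161524539, plus strand): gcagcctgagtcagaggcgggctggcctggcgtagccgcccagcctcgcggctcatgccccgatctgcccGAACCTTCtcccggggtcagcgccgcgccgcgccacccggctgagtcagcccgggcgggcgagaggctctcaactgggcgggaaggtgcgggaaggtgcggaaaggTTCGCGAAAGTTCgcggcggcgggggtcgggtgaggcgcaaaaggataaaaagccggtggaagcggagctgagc
HSPA1A (chr6:31815293-31815542, plus strand): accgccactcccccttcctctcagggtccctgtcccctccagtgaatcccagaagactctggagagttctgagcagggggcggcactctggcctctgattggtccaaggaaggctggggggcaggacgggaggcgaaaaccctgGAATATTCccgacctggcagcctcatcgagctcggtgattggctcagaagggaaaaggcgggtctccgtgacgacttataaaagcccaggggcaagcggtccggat
DNAJB1 (chr19:14518398-14518647, minus strand): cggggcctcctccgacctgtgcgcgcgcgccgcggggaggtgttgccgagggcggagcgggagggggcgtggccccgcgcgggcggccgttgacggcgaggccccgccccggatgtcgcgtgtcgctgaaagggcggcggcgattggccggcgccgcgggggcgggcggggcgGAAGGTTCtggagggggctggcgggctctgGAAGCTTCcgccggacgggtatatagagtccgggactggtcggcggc
SERPINH1 (chr11:75562003-75562252, plus strand): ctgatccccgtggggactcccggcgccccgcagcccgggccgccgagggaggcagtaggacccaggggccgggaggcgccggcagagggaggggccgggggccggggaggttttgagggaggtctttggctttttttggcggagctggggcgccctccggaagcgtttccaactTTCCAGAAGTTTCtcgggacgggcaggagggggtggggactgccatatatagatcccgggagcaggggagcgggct
HSPA6 has matches beginning at -180, -74 and -69, HSPA1A at -106, DNAJB1 at -77 and -47, and SERPINH1 at -76 and -71. DNAJB1 has 2 other annotated windows and SERPINH1 has 1, none with a match.

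HMOX1, haem oxygenase 1, the inducible enzyme that breaks haem down, was also among the largest rises. Its level was 9.84, 8.16 and 11.3 CPM in DMSO, 43, 53.1 and 62.1 CPM with KB02 and 571, 547 and 515 CPM in KB05. The 3 groups did not overlap, and the log2 fold change was 5.81 ± 0.15 against DMSO (55.9-fold, adjusted p = 3.38e-11) and 3.37 ± 0.13 against KB02. HMOX1 (ENSG00000100292.18) lies on chromosome 22 from 35380361 to 35394214. Of the 22 haem and iron genes, HMOX1 included, 5 rose and 6 fell, with a median of -0.10, and 12 were higher and 1 lower than with KB02. Over all genes tested 18.7% were higher and 21.1% lower than DMSO, and 21.8% higher and 18.2% lower than KB02. The counts against DMSO were thus near the shares of all genes. HMOX2, the constitutive form, rose by 0.43, and TFRC, the transferrin receptor, fell by 0.37 with KB05 and 1.14 with KB02.

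Other NRF2-linked lists held rises and falls, beside 18.7% higher and 21.1% lower over all genes. Of 24 glutathione genes 4 rose and 9 fell (median -0.12), of 20 NADPH and detoxification genes 3 rose and 7 fell (median -0.12), and of 19 thioredoxin genes 7 rose and 4 fell (median 0.11). Against KB02, 11 glutathione genes were higher and 3 lower, 9 and 2 of the NADPH list, and 8 and 1 of the thioredoxin list. CHAC1, which degrades glutathione, rose by 2.98 ± 0.11 with KB05 and 2.85 with KB02. SLC7A11, the cystine importer that feeds glutathione synthesis, was at 40.8, 34.3 and 32.9 CPM in DMSO, 66.1, 58.8 and 69.2 CPM with KB02 and 27.8, 25.2 and 24.8 CPM in KB05. It fell with KB05 (log2 fold change -0.47 ± 0.09, adjusted p = 0.000111) and rose with KB02 (0.84), and the direct difference was -1.32 ± 0.09. Its obligate partner SLC3A2 moved the opposite way, from 602, 656 and 732 CPM in DMSO to 1510, 1470 and 1500 CPM in KB05, with KB02 at 812, 750 and 816 CPM. SRXN1, which repairs peroxiredoxins, rose by 0.41, while NQO1, a standard NRF2 target, had a value of -0.07 and did not pass the test. The antioxidant response element TGACNNNGC stood in 11.7% of all promoter windows, in 7 of 28 windows of glutathione genes (25%) and in 6 of 20 of NADPH and detoxification genes (30%). TXNIP, the inhibitor of thioredoxin, fell by 0.76 with KB05 and was 0.41 higher than DMSO with KB02.

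Among 10 NRF2 regulators, 5 rose and 3 fell with KB05. CUL3, the scaffold of the ubiquitin ligase that uses KEAP1, had 72.5, 72.3 and 65.2 CPM in DMSO, 88.7, 87.7 and 78.5 CPM with KB02 and 29.4, 33.3 and 30.2 CPM in KB05. All KB05 libraries lay below all others (log2 fold change -1.18 ± 0.08, adjusted p = 4.87e-13), and KB02 was 0.28 above DMSO. NFE2L2, the gene of NRF2, fell by 0.27 with KB05 and stood 0.29 above DMSO with KB02. SQSTM1, an autophagy receptor that binds KEAP1, rose by 0.81, from 118, 111 and 114 CPM to 213, 204 and 185 CPM. Among 20 autophagy genes 4 rose and 5 fell with a median of 0.00, close to the shares over all genes (18.7% and 21.1%). ULK1, the kinase that starts autophagy, fell beyond KB02: 75.9, 87.1 and 83.7 CPM in DMSO, 65, 60.9 and 80.2 CPM with KB02 and 35.1, 32.1 and 32.3 CPM in KB05.

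**Figure D2:**
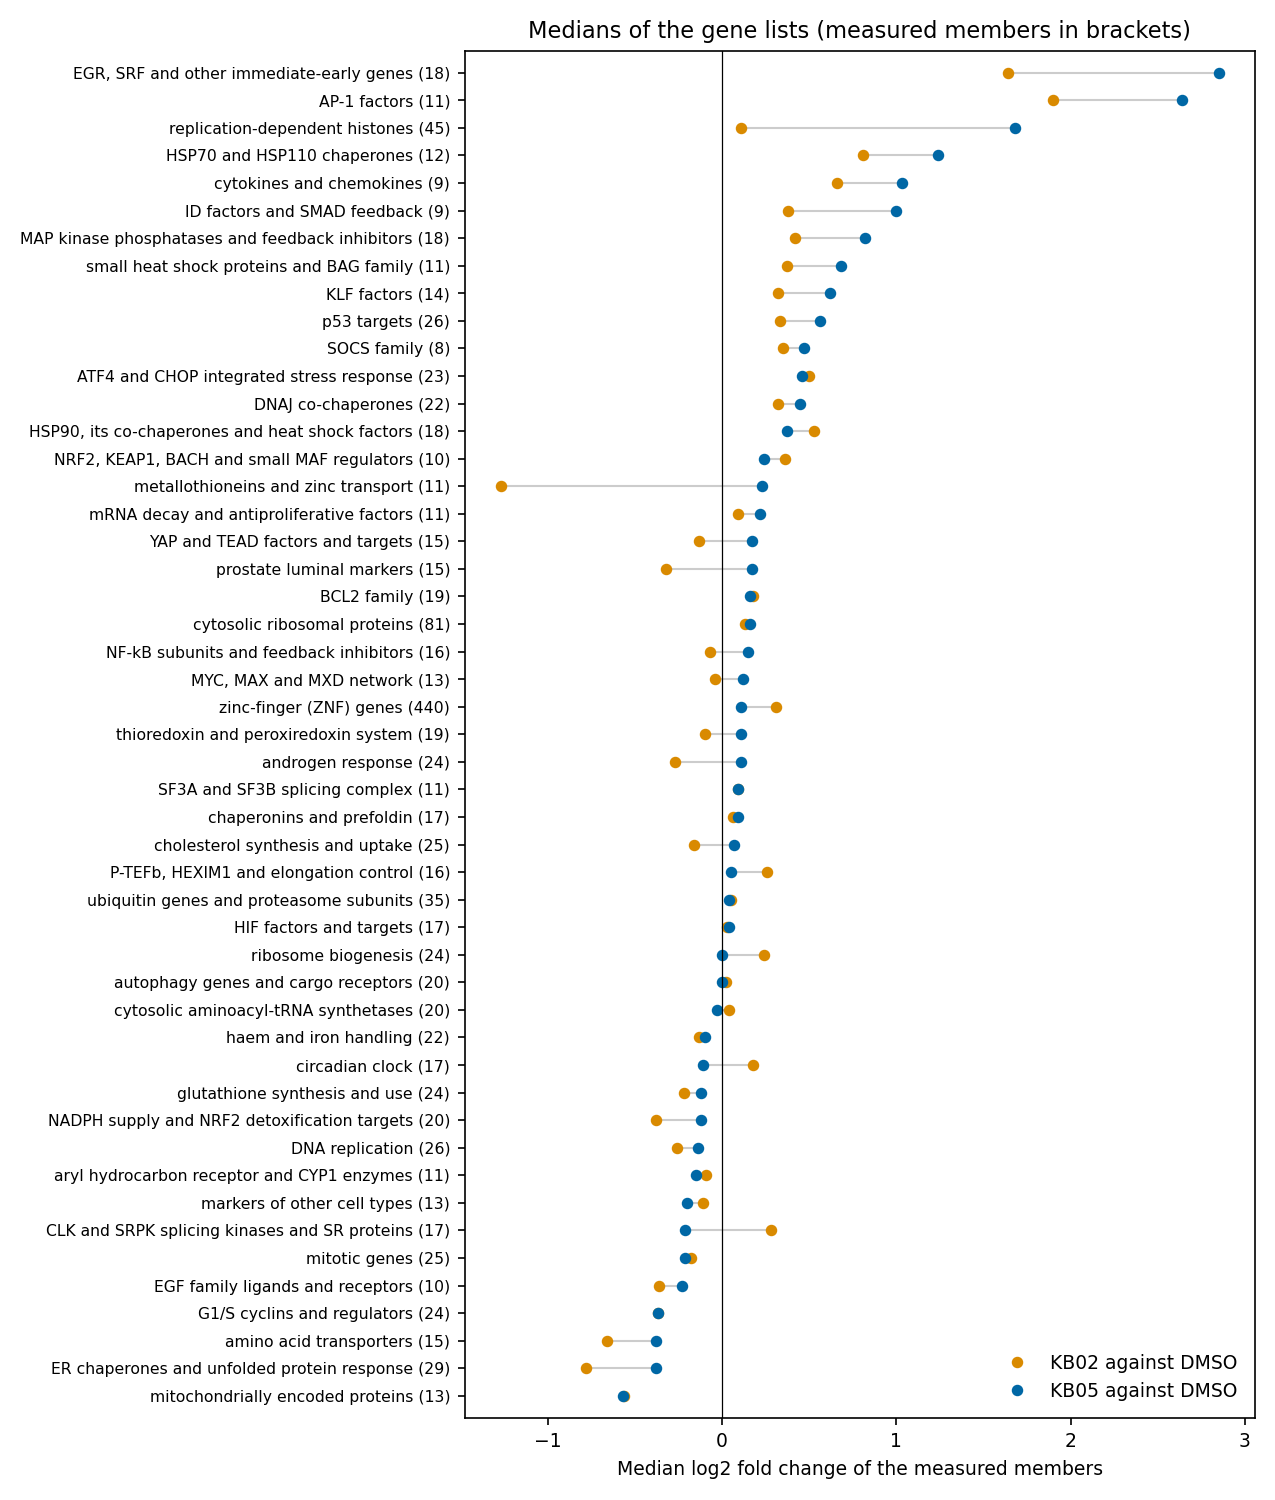
Median log2 fold change against DMSO of 49 gene lists for KB05 and for KB02, with 1 row per list. AP-1 and immediate-early genes have the highest KB05 medians (2.64 and 2.85), and histones are at 1.68 with KB05 and 0.11 with KB02; the 2 comparisons share the DMSO libraries.

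Immediate-early genes rose as a group. Of 18 EGR, serum response factor and related genes, 17 rose, 15 of them at least 2-fold, and 1 fell, with a median of 2.85 for KB05 and 1.64 for KB02. In the direct contrast 15 were higher with KB05 and none was lower. NR4A1, an orphan nuclear receptor, differed widely between the compounds. It was at 35.6, 36.8 and 41.5 CPM in DMSO, 57.3, 51.5 and 56.6 CPM with KB02 and 591, 571 and 487 CPM in KB05. Against DMSO the log2 fold change was 3.86 ± 0.09 with KB05 (adjusted p = 5.61e-25) and 0.54 with KB02, a direct difference of 3.32 ± 0.08. NR4A1 (ENSG00000123358.20) lies on chromosome 12 from 52022832 to 52059507, and an antisense gene overlaps it, so its reads may include antisense RNA because strand use is not given.

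Several other members separated all 3 groups. EGR1 (chromosome 5, 138465490 to 138469315), a zinc-finger factor under serum response factor control, went from 57.7, 44.4 and 67.4 CPM to 878, 892 and 948 CPM with KB02 and 1610, 1590 and 1830 CPM with KB05. EGR3 went from 2.49, 2.07 and 2.49 CPM to 9.44, 9.14 and 10.1 CPM with KB02 and 55.5, 53 and 49.5 CPM with KB05, a direct difference of 2.46 ± 0.10. ARC, a cytoskeletal protein known from neuronal activity, was at 3.23, 2.27 and 2.07 CPM in DMSO, 19.5, 15.7 and 16.6 CPM with KB02 and 89, 84.9 and 83.3 CPM in KB05. In all 3 genes KB02 libraries lay between DMSO and KB05 without overlap. CCN1, a secreted matricellular protein, stood at 21.5, 25.6 and 22.8 CPM in DMSO, 34, 34.5 and 30.5 CPM with KB02 and 160, 166 and 163 CPM in KB05. CCN1 lies on chromosome 1 from 85580761 to 85583962. Its relative CCN2 parted the compounds by sign: 30.1, 25.9 and 22.9 CPM in DMSO fell to 7.63, 6.26 and 4.88 CPM with KB02 and rose to 57.1, 57.5 and 46.8 CPM with KB05 (direct difference 3.09 ± 0.14, adjusted p = 1.58e-11). Of 15 genes of the YAP and TEAD list, which shares CCN1 and CCN2, 7 rose and 2 fell with a median of 0.17, and ANKRD1, another usual target, had a value of 0.07. NPAS4 had 2, 0 and 0 counts in DMSO, 2, 3 and 4 in KB02 and 25, 17 and 41 in KB05, a ratio of 43.6 to DMSO (exact 95% interval 11.7 to 366, counting error only). NPAS4 reached the count filter only through the KB05 libraries, so it could enter the count of immediate-early genes only as a rise.

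The CArG box, the site of serum response factor, was present in 3 of 20 windows of these genes (15%) and in 1.01% of all windows. The EGR1 window is shown because it holds 2 such boxes, in capitals, beginning at -105 and -83.
EGR1 (chr5:138465229-138465478, plus strand): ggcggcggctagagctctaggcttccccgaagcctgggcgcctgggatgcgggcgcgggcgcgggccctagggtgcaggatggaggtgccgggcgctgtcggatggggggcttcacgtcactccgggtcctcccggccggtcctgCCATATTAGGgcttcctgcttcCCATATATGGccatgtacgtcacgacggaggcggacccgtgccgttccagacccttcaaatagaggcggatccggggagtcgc
The AP-1 site TGANTCA was found in 4.55% of all windows and in none of 12 windows of AP-1 genes, which says only that these letters are absent there. The CRE TGACGTCA was in 2.36% of all windows, in none of the 20 windows of immediate-early genes and in 1 of 12 of AP-1 genes.

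Of 11 AP-1 factors 9 rose and none fell (median 2.64 for KB05, 1.90 for KB02). FOS rose by 4.28 ± 0.09 with KB05 and 4.35 with KB02, and its direct difference was -0.07 ± 0.08 (adjusted p = 0.512). FOSB was lower with KB05 than with KB02 (2.88 and 4.09). FOSL1, the gene of FRA-1, which accumulates under sustained MAP kinase signalling, was at 1.01, 1.91 and 1.64 CPM in DMSO, 1.72, 1.17 and 1.72 CPM with KB02 and 7.76, 9.56 and 7.3 CPM in KB05. KB02 libraries lay within the DMSO range, and KB05 libraries were all above it (log2 fold change 2.43 ± 0.23, adjusted p = 1.19e-09). JUN and FOSL2 rose beyond KB02, by 0.60 and 0.74.

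Feedback inhibitors of MAP kinases were higher too. Of 18, 13 rose and none fell, 7 of them at least 2-fold, with a median of 0.82 for KB05 and 0.42 for KB02, and 8 exceeded KB02. In the direct contrast 8 were higher and 4 lower, with a median of 0.04 (-0.08 with scaling by library size alone), so the list as a whole did not exceed KB02. DUSP4, a nuclear phosphatase of ERK and JNK, was at 24, 22.8 and 25 CPM in DMSO, 17, 14.3 and 15.2 CPM with KB02 and 102, 94.8 and 79.3 CPM in KB05. It rose with KB05 (1.94 ± 0.09, adjusted p = 8.68e-17), fell with KB02 (-0.63) and differed directly by 2.57 ± 0.09. SPRY1, a receptor tyrosine kinase inhibitor, showed the same order, with 0.96 for KB05 and -0.83 for KB02, and SPRY2 rose by 1.29 where KB02 gave 0.11. DUSP6, the cytoplasmic ERK phosphatase, rose by 1.97 with KB05 and 1.02 with KB02. SPRED3 and SPRED2 were lower with KB05 than with KB02 (0.84 and 0.26 against 1.66 and 0.59), and DUSP8 did not pass that test (0.80 and 0.98). Of 10 measured EGF family genes 1 rose, HBEGF (1.65), and 2 fell, ERBB2 (-0.54) and ERBB3 (-0.43). Over all genes 18.7% were higher and 21.1% lower.

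Of 14 KLF factors 9 rose and none fell, and 5 exceeded KB02. KLF4 and KLF6, zinc-finger regulators of epithelial growth, were among them. KLF4 was at 24, 23.1 and 17.4 CPM in DMSO, 20.4, 18 and 19.7 CPM with KB02 and 65.9, 67.1 and 57.1 CPM in KB05 (1.56 ± 0.10). KLF6 went from 36.4, 33.7 and 37.9 CPM to 101, 93.2 and 86.2 CPM, with KB02 at 25.1, 33 and 35.6 CPM. Of the mRNA decay and antiproliferative list, 6 of 11 rose and 3 fell. ZFP36L2, which destabilises AU-rich transcripts, rose by 0.91 and BTG1 by 0.69 where KB02 gave 0.09 and -0.14. CNOT1, the scaffold of the deadenylase complex, fell by 0.39 with KB05 and stood 0.60 above DMSO with KB02.

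ID proteins block basic helix-loop-helix factors and are targets of BMP and SMAD signalling. Of 9 ID and SMAD feedback genes 8 rose and none fell, with a median of 1.00 for KB05 and 0.38 for KB02, and 6 exceeded KB02. ID3 was at 403, 405 and 412 CPM in DMSO, 542, 540 and 584 CPM with KB02 and 1610, 1520 and 1510 CPM in KB05 (1.93 ± 0.07, adjusted p = 4.24e-20). ID1 went from 263, 238 and 219 CPM to 383, 368 and 329 CPM with KB05 but to 116, 112 and 136 CPM with KB02, so the compounds lay on opposite sides of DMSO. BAMBI, a decoy receptor that dampens this pathway, did the same, with 1.21 ± 0.13 for KB05 and -0.71 for KB02. The repressors SKI and SKIL were the exceptions: both were lower with KB05 than with KB02 (0.20 and 0.40 against 0.73 and 1.02), and SKI did not pass the test against DMSO. Outside the lists, the Notch targets HES1 and HEY1 and the stem cell factor SOX2 were also higher: HES1 rose by 1.95 ± 0.17, HEY1 by 2.19 ± 0.20 and SOX2 by 2.71 ± 0.34, with KB02 values of -0.20, 0.31 and 0.94; they were singled out after their values were seen.

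**Figure D3:**
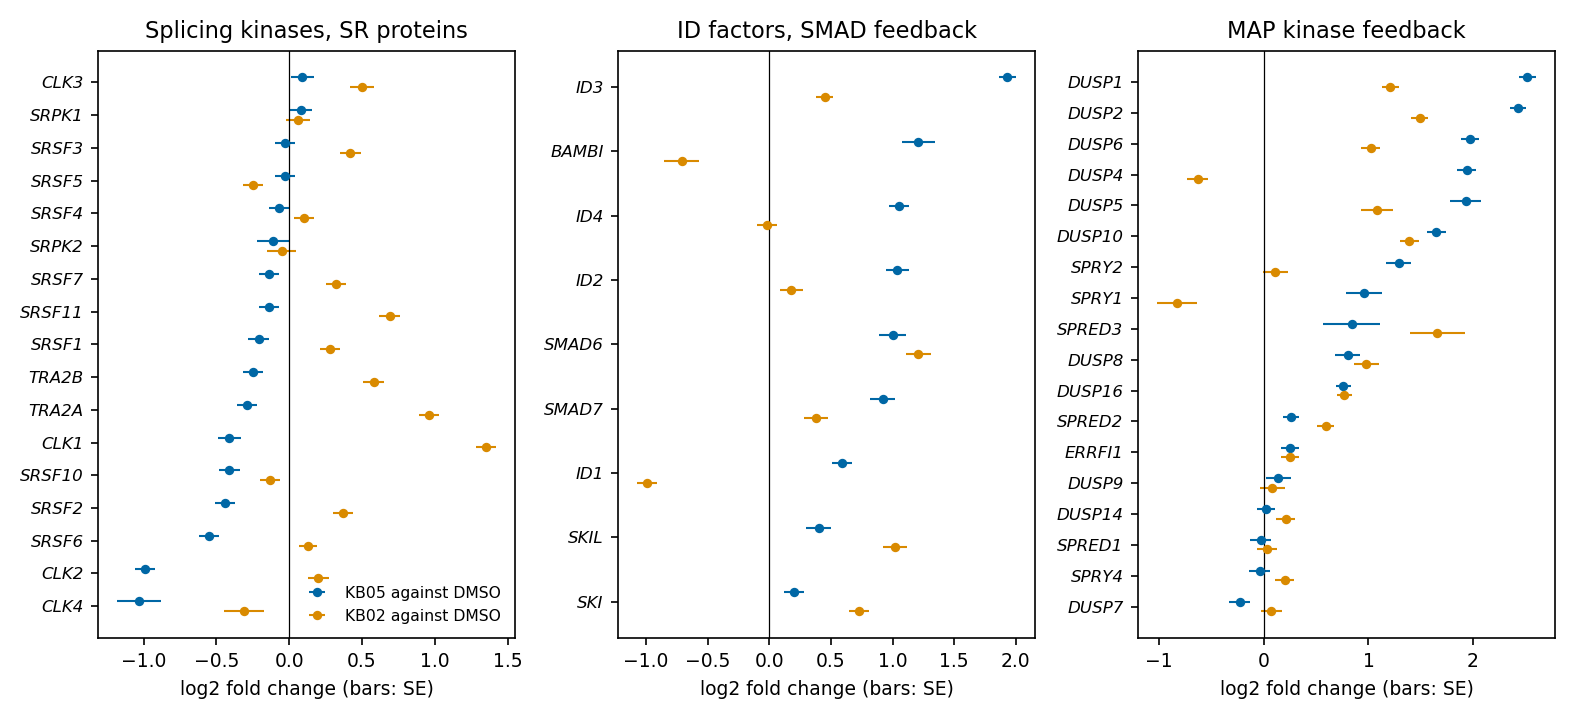
Log2 fold change against DMSO (points) with SE (bars) for KB05 and KB02 in the genes of 3 lists: splicing kinases and SR proteins, ID and SMAD feedback genes, and MAP kinase feedback inhibitors. KB05 values lie below KB02 values for most of the first list and above them for ID1, BAMBI, DUSP4 and SPRY1.

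Chemokine transcripts were scarce, but KB05 raised 3 of the CXC family. CXCL2 had 0 counts in all DMSO libraries, 1, 0 and 0 in KB02 and 22, 30 and 15 in KB05, at least 7.98-fold higher than a floor of 3 counts per DMSO library. CXCL3 had 1, 0 and 1 counts in DMSO, 2, 4 and 2 in KB02 and 20, 14 and 16 in KB05, a ratio of 26.3 (exact 95% interval 6.9 to 223). CXCL8 had 5, 11 and 3 counts in DMSO, 0, 4 and 6 in KB02 and 25, 32 and 25 in KB05 (edgeR adjusted p = 0.00175). These chemokines attract neutrophils. Of the 9 measured cytokine genes (of 17 listed) 5 rose and none fell. CXCL2, CXCL3 and CXCL8 reached the count filter only through the KB05 libraries, so they could enter that count only as rises. LIF, which rose by 0.77 (adjusted p 0.0619 without KB05 replicate 1), was at -0.02 with KB02. Of 16 NF-kB genes 5 rose and 3 fell, beside 18.7% higher and 21.1% lower over all genes. NFKBIE rose by 1.25, and the feedback genes NFKBIA and TNFAIP3 had values of 0.15 and 0.15 that did not pass. A part of NF-kB in the chemokine rises was not tested. Of 8 SOCS genes 5 rose, and SOCS1 did so less with KB05 (3.18) than with KB02 (4.53).

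Replication-dependent histone genes, which lack introns and whose messages normally end in a stem-loop in place of a poly(A) tail, were higher in 36 of 45 measured members (66 listed) and lower in none. Of these, 33 were at least 2-fold higher and 32 exceeded KB02, with medians of 1.68 for KB05 and 0.11 for KB02. Histone genes with enough counts only in the KB05 libraries could enter these counts and the KB05 median only as rises. How many of the 45 did so was not counted. H4C5 was at 0.741, 0.568 and 0.608 CPM in DMSO, 1.59, 1.53 and 0.998 CPM with KB02 and 11.9, 9.04 and 10.1 CPM in KB05 (4.01 ± 0.24). H2BC8 was at 0.794, 1.03 and 1.22 CPM in DMSO, 1.12, 0.54 and 0.388 CPM with KB02 and 9.12, 6.24 and 7.24 CPM in KB05. In both genes the KB05 libraries were above all others. H4C5 was also higher with KB02 than with DMSO (1.11, adjusted p = 0.00195), while H2BC8 had a KB02 value of -0.52. Together histones took 0.0232% to 0.0234% of counts in DMSO, 0.027% to 0.0284% in KB02 and 0.0513% to 0.0547% in KB05, so the rise concerns a small share of RNA. Near-identical histone copies share reads, which makes single members less certain than the family. Of 26 DNA replication genes 5 rose and 9 fell (median -0.14), beside 18.7% higher and 21.1% lower over all genes. POLE, the leading-strand polymerase, had the largest fall of that list, by 1.07. Of 24 G1/S genes 3 rose and 12 fell (median -0.37). A link between the histone rise and DNA replication was not tested.

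Protein-coding genes with few exons tended to be higher with KB05 and those with many exons lower. Exon number here is the largest count in any annotated transcript (GENCODE 29). Over 14396 protein-coding genes, 19% were higher and 24.2% lower. Among 299 single-exon genes 41.1% were higher and 16.7% lower, with a median log2 fold change of 0.30. For 512 genes with 2 exons the shares were 35.9% and 12.5% (median 0.21), for 2847 genes with 3 to 5 exons 27.9% and 16.1% (0.09), and for 4449 genes with 6 to 10 exons 21.6% and 20.4% (0.03). With 11 to 20 exons (4267 genes) they turned to 13.5% and 27% (-0.08), and with over 20 exons (2022 genes) to 4.5% and 41.8% (-0.24). KB02 medians over the same classes were 0.07, 0.06, -0.02, -0.02, -0.04 and 0.01. Without histone genes the single-exon class had 267 genes, 37.5% higher and 18.7% lower, with a median of 0.20.

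All 3 KB05 libraries showed the gradient. Among genes whose log2 CPM averaged 1 or more, the median difference from the mean of the DMSO libraries for genes with over 20 exons was -0.23, -0.26 and -0.27 in KB05, 0.01, 0.01 and -0.02 in DMSO and 0.01, 0.00 and -0.01 in KB02. Subtracting the single-exon median gave -0.39, -0.39 and -0.42 in KB05 and 0.01, 0.03 and -0.04 in DMSO, a difference of -0.40 ± 0.01 against 0.00 ± 0.03 (mean ± SD, n = 3; no test is given, since the classes were chosen on these data). Long genes tend to have many exons, so the classes were also read within gene length. In the longest quintile of genes (97211 bases or more), genes with 3 to 5 exons had a median of 0.02 and those with over 20 exons -0.22. In the shortest quintile (up to 9919 bases) the median went from 0.30 for 1 exon to -0.05 for 11 to 20 exons. Within quintiles of spliced length the order was less regular among genes with few exons. In the shortest the medians ran from 0.53 for 1 exon to 0.05 for 11 to 20, but in the middle quintile 36 single-exon genes were at -0.04 and 92 genes with 2 exons at 0.23, and in the longest 2 exons were at -0.01 and 3 to 5 at 0.03. Genes with over 20 exons had the lowest median in each of the 4 quintiles that held such a class. In the quintile with the highest levels the median ran from 0.14 for 2 exons to -0.27 for over 20, but the 46 single-exon genes there had a median of -0.01. The single-exon rise was largest at low level, with a median of 0.83 for 117 genes in the lowest level quintile and 0.11 for 33 genes in quintile 4. Histone genes were kept in these quintiles, and genes that passed the count filter only through the KB05 libraries could enter only as rises. The low-level median therefore carries that selection. What moves with exon number beyond length and level was not tested.

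**Figure D4:**
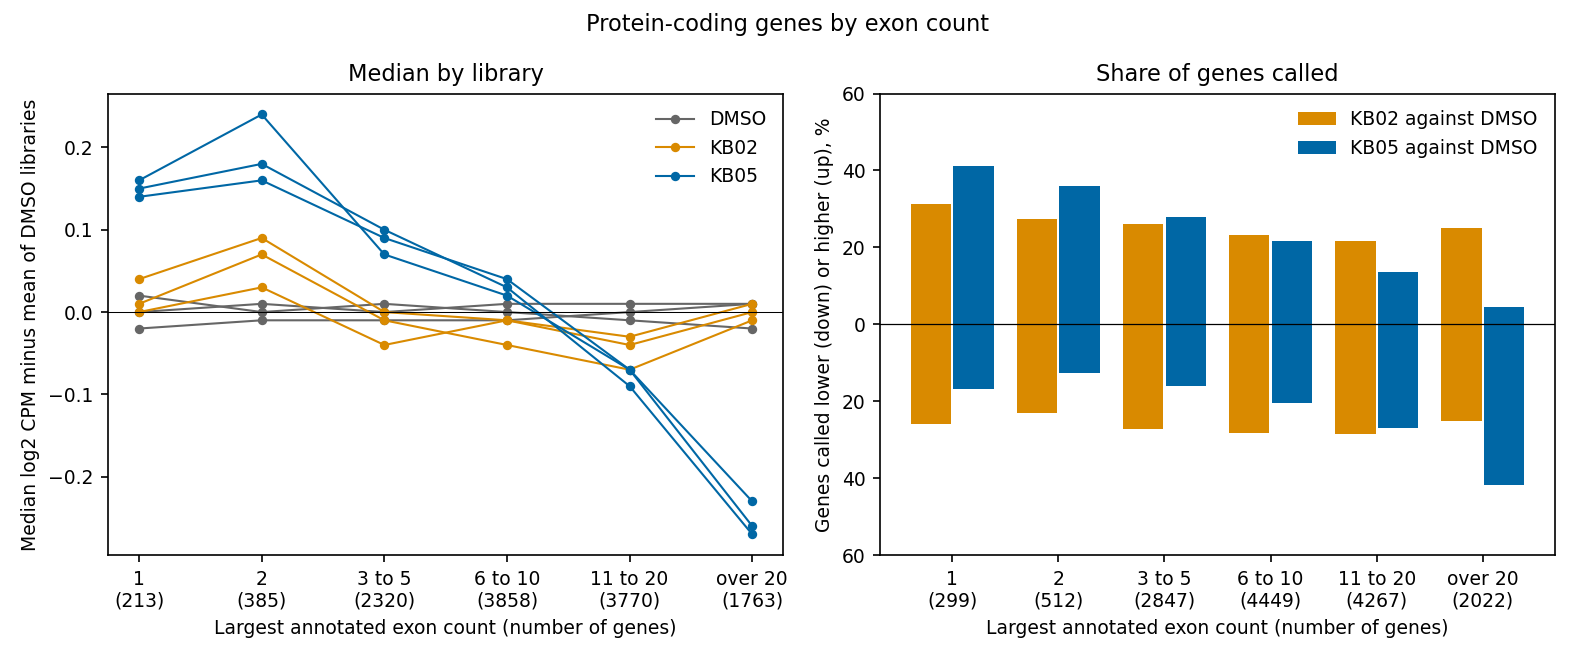
Left, median log2 CPM relative to the mean of the DMSO libraries by exon class, with 1 point per library and class and a line for each library. Right, percent of genes called higher (bars up) or lower (bars down) than in DMSO with KB02 and with KB05, with gene numbers in brackets. KB05 points pass from 0.14 to 0.16 for single-exon genes to -0.27 to -0.23 for genes with over 20 exons, while DMSO and KB02 points stay near 0 in the last class.

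Part of the CLK and SR genes were lower. CLK kinases phosphorylate SR proteins, which choose exons. Of 17 CLK, SRPK and SR genes 0 rose and 9 fell with KB05 (median -0.21), and all 9 were below KB02 as well, where 10 of the 17 rose (median 0.28). CLK2 was at 98.3, 108 and 107 CPM in DMSO, 124, 114 and 120 CPM with KB02 and 53.8, 52.8 and 50.3 CPM in KB05. The 3 groups did not overlap, and the log2 fold change was -0.99 ± 0.07 with KB05 (adjusted p = 1.75e-12). CLK1 was at 74.3, 73.2 and 81.2 CPM in DMSO, 205, 196 and 181 CPM with KB02 and 53.8, 56.2 and 61.7 CPM in KB05, so KB02 raised what KB05 lowered (direct difference -1.76 ± 0.07, adjusted p = 9.51e-18). CLK4 fell by 1.03 and SRSF6 by 0.55, and TRA2A, a splicing enhancer, fell by 0.29 with KB05 while KB02 stood 0.96 above DMSO. SF3B1, the core branch-site recognition protein, had 25 exons at most and went from 163, 154 and 159 CPM to 111, 115 and 111 CPM with KB05 and 235, 206 and 212 CPM with KB02. Of the 11 genes of the SF3A and SF3B complex 4 rose and 2 fell (median 0.09), beside 18.7% higher and 21.1% lower over all genes.

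Of 16 genes of the P-TEFb list, which governs transcript elongation, 4 rose and 3 fell, close to the shares over all genes (18.7% and 21.1%). CCNT2, a cyclin of the CDK9 kinase, went from 31, 26.1 and 29.9 CPM to 15.1, 17 and 14.9 CPM with KB05 and 39.6, 36.4 and 39.3 CPM with KB02. HEXIM1, which holds P-TEFb inactive, rose by 0.51 with KB05 and 1.38 with KB02, and BRD2, a bromodomain factor, had 0.09 with KB05 (adjusted p = 0.304) and 1.25 with KB02. Circadian genes went both ways, with 5 of 17 higher and 5 lower, beside 18.7% and 21.1% of all genes. CRY1, CRY2, PER2, PER3 and NPAS2 were lower than in both other groups, and BHLHE41, a repressor of the clock, rose by 1.23 ± 0.20 where KB02 gave -0.29. PER3 was at 1.06, 0.826 and 1.09 CPM in DMSO and 0.313, 0.455 and 0.345 CPM in KB05, with a log2 fold change of -1.41 ± 0.46.

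Of 23 integrated stress response genes, 14 rose with KB05 and none fell (median 0.46), and 15 rose and 3 fell with KB02 (median 0.50), and the direct contrast had 9 higher and 6 lower. DDIT3, the gene of CHOP, rose by 3.23 with KB05 and 2.64 with KB02, whereas ATF4 rose by 0.63 and 1.09 and SESN2 by 1.73 and 2.35. Of 26 p53 targets 14 rose, 9 at least 2-fold, and 1 fell (median 0.56), 10 of them beyond KB02. GDF15, a secreted stress cytokine, was at 638, 698 and 683 CPM in DMSO, 210, 182 and 200 CPM with KB02 and 1170, 1080 and 1020 CPM in KB05, a direct difference of 2.47 ± 0.08 (adjusted p = 5.32e-21). TP53I3, a p53-induced quinone reductase, rose by 1.33 ± 0.23 where KB02 gave 0.00. CDKN1A, the p21 cell cycle inhibitor, rose by 0.87 and MDM2 by 0.36, while BAX, FAS and RRM2B did not pass the test, with 0.11, -0.05 and 0.10. Of 19 BCL2 family genes 8 rose and 1 fell: MCL1 rose by 0.94, and BMF, a pro-apoptotic member, fell by 1.54 with KB05 and 2.39 with KB02.

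Endoplasmic reticulum, transporter and zinc genes lay closer to vehicle with KB05 than with KB02. Of 29 ER chaperone and unfolded protein response genes 2 rose and 21 fell (median -0.38), and 22 were higher with KB05 than with KB02, whose median was -0.78. HSPA5, the main ER chaperone BiP, went from 2100, 2330 and 2460 CPM to 1500, 1400 and 1280 CPM with KB05 and 1040, 996 and 1020 CPM with KB02. HERPUD1, of ER-associated degradation, and DNAJB9, an ER co-chaperone, rose against that direction, by 0.75 and 1.09. Of 15 amino acid transporters 1 rose, SLC3A2, and 11 fell (median -0.38; KB02 -0.66). Metallothioneins bind zinc and report on its free level. Of 11 metallothionein and zinc genes 3 rose and none fell with KB05, while 10 were higher than with KB02 (median 0.23 for KB05, -1.27 for KB02). MT2A was at 265, 268 and 263 CPM in DMSO, 104, 128 and 147 CPM with KB02 and 381, 389 and 369 CPM in KB05. MT1X did not pass the test against DMSO (0.16, adjusted p = 0.137) and was 1.44 ± 0.09 above KB02.

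Transcripts of the mitochondrial genome split by kind. Of 13 messages for proteins 12 fell and none rose, with medians of -0.57 for KB05 and -0.56 for KB02. MT-ND2, a subunit of complex I, went from 8040, 7490 and 9130 CPM to 4710, 3940 and 4500 CPM with KB05 and 5060, 4910 and 5780 CPM with KB02. The ribosomal RNA MT-RNR1 went the other way, from 3810, 3380 and 3890 CPM to 7060, 6240 and 7010 CPM with KB05, while KB02 libraries were at 3940, 3770 and 3730 CPM. Its log2 fold change was 0.87 ± 0.07 with KB05 (adjusted p = 9.03e-11) and 0.05 with KB02, and MT-RNR2 rose by 0.44 ± 0.08. The labels do not say whether ribosomal RNA was removed, which limits what a ribosomal RNA level shows. All mitochondrial genes together took 16.8% to 18.7% of counts in DMSO and 13.5% to 14.8% in KB05.

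The largest CPM gains also included ACTB, cytoplasmic actin, a gene often used as a constant reference. It was at 3660, 3800 and 4140 CPM in DMSO, 4030, 3820 and 3960 CPM with KB02 and 6460, 6780 and 7100 CPM in KB05. KB02 and DMSO overlapped and KB05 stood above both (0.81 ± 0.07, 1.75-fold, adjusted p = 2.03e-10). Actin is a known serum response factor target. SRF itself rose by 0.75, from 71.9, 74.6 and 69.4 CPM to 126, 119 and 118 CPM, with KB02 at 76.2, 80.5 and 88.2 CPM. VEGFA, a growth factor for blood vessels, went from 67.1, 61.7 and 56.7 CPM to 178, 161 and 158 CPM with KB05 and 90.6, 88.7 and 83.3 CPM with KB02, although of 17 HIF genes 5 rose and 1 fell with a median of 0.04.

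Further genes of the set that most exceeded KB02 were receptors, small GTPases and factors not in the lists. NGFR, the low-affinity neurotrophin receptor, was at 2.7, 3.92 and 3.1 CPM in DMSO, 4.74, 4.41 and 6.87 CPM with KB02 and 33.5, 30.5 and 34.3 CPM in KB05 (3.33 ± 0.15, direct difference 2.63 ± 0.14), although 3 annotated genes overlap it, 1 on the same strand. RHOH, an atypical GTPase of blood cells, was at 2.33, 1.96 and 2.01 CPM in DMSO, 2.72, 3.38 and 2.83 CPM with KB02 and 14.8, 16.4 and 14.5 CPM in KB05. GEM, a GTPase that inhibits calcium channels, went from 2.22, 2.32 and 2.31 CPM to 6.94, 6.3 and 6.15 CPM with KB02 and 36.6, 38.5 and 38.3 CPM with KB05. In these 3 genes the KB05 libraries were all above the rest. Within the MYC network of 13 genes 2 rose and 2 fell, beside 18.7% higher and 21.1% lower over all genes. MYCL rose from 1.11, 1.29 and 1.88 CPM to 8.49, 5.66 and 5.75 CPM (2.23 ± 0.25; KB02 0.21), while MYC fell from 157, 135 and 136 CPM to 39.4, 39.2 and 37.7 CPM with KB05 and 25.3, 23.1 and 20.4 CPM with KB02.

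**Figure D5:**
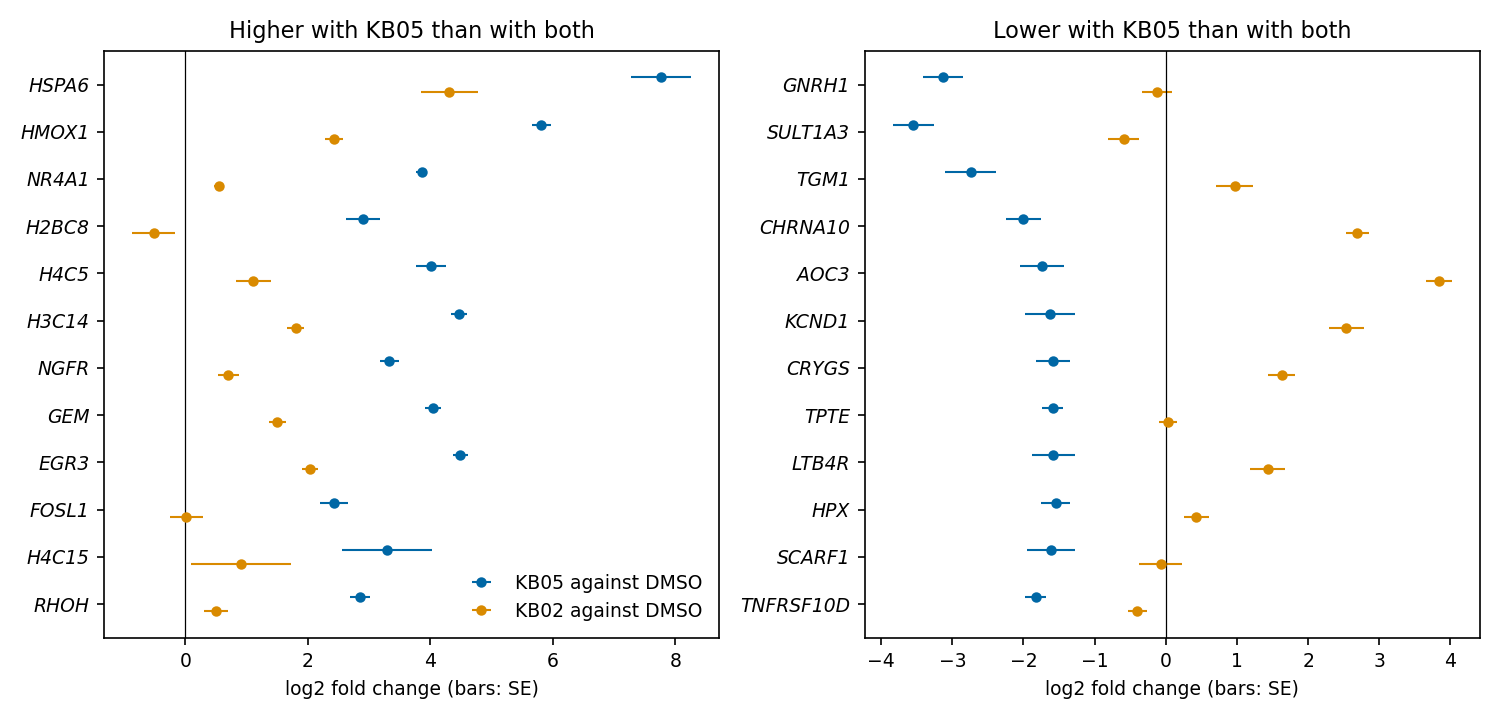
Log2 fold change against DMSO (points) with SE (bars) for KB05 and KB02 in the 12 rises and 12 falls in which KB05 differed most from both DMSO and KB02. HSPA6 is highest at 7.77 with KB05 and 4.31 with KB02, and AOC3, CHRNA10 and KCND1 lie below 0 with KB05 and above 2 with KB02.

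The leading falls beyond KB02 were in genes of low level. GNRH1, the gonadotropin-releasing hormone gene, was at 4.66, 4.6 and 3.53 CPM in DMSO, 4.09, 4.14 and 3.55 CPM with KB02 and 0.521, 0.455 and 0.46 CPM in KB05. KB02 lay within the DMSO range and KB05 was below both (-3.13 ± 0.28, adjusted p = 2.51e-10). TGM1 (chromosome 14, 24249114 to 24264432), a transglutaminase of keratinocytes, was at 4.71, 4.91 and 4.98 CPM in DMSO, 9.27, 6.71 and 12.8 CPM with KB02 and 1.2, 0.26 and 0.632 CPM in KB05. AOC3, a vascular amine oxidase, was at 2.01, 1.29 and 2.01 CPM in DMSO, 28.4, 22.2 and 25 CPM with KB02 and 0.313, 0.845 and 0.46 CPM in KB05. CHRNA10, a nicotinic receptor subunit, was at 3.18, 2.58 and 2.13 CPM in DMSO, 17.5, 15 and 18.8 CPM with KB02 and 0.625, 0.65 and 0.69 CPM in KB05. KCND1, a potassium channel, CRYGS, a crystallin, and LTB4R, a leukotriene receptor, had the same order, with KB05 at -1.63, -1.59 and -1.58 and KB02 at 2.54, 1.63 and 1.43. CHRNA10, CRYGS and LTB4R each overlap 1 annotated gene on the same strand (NUP98, TBCCD1 and LTB4R2), so reads may be shared. TNFRSF10D, a decoy receptor for TRAIL, went from 20, 20 and 14.5 CPM to 4.01, 5.46 and 5.92 CPM, with KB02 at 14.8, 13.7 and 12.7 CPM.

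CYP1A1 (chromosome 15, 74719542 to 74725610), the aryl hydrocarbon receptor target that oxidises polycyclic aromatics, fell further than any other gene named here. It was at 887, 970 and 963 CPM in DMSO, 9.35, 10.6 and 11.9 CPM with KB02 and 18, 12.4 and 16.2 CPM in KB05. It fell with either compound, and the level was 0.56 ± 0.12 higher with KB05 than with KB02 on the log2 scale (adjusted p = 0.000414). Of 11 aryl hydrocarbon receptor and CYP1 genes 3 rose and 3 fell, beside 18.7% higher and 21.1% lower over all genes. The xenobiotic response element GCGTG was in 42% of all promoter windows and in 5 of 11 windows of these genes (45.5%). The CYP1A1 window holds 1, at -57, in capitals.
CYP1A1 (chr15:74725529-74725778, minus strand): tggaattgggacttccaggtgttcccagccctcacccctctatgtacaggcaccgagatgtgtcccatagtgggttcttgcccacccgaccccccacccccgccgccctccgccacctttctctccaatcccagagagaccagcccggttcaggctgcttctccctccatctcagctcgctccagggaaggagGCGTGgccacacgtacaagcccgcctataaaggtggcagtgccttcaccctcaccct

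Of 24 measured genes of the androgen response list 8 rose and 5 fell with KB05 (median 0.11; KB02 -0.27). KLK3, which encodes prostate-specific antigen, rose by 0.35 with KB05 and fell by 0.52 with KB02. TMPRSS2, a protease under androgen control, fell by 0.81 with KB05 and 1.34 with KB02. SGK1, a kinase also induced by glucocorticoids, rose by 1.71 ± 0.17 with KB05 and 1.59 with KB02. Of 15 luminal markers 7 rose and 3 fell with KB05, GATA2 by most (97, 99.6 and 108 CPM in DMSO and 212, 210 and 223 CPM in KB05), and 12 were higher with KB05 than with KB02.

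The other lists had small medians, from -0.21 to 0.16, but not all had call shares near the 18.7% higher and 21.1% lower of all genes. Ribosomal protein and ZNF genes were more often higher than that, and mitotic genes more often lower. Of 35 ubiquitin and proteasome genes 9 rose and 3 fell (median 0.04). UBB, a stress-inducible ubiquitin gene, rose by 1.11, while PSMD12, a proteasome lid subunit, fell by 0.79. Of 20 tRNA synthetases 5 rose and 6 fell (median -0.03). Of 24 ribosome biogenesis genes 6 rose and 1 fell (median 0.00), and of 81 ribosomal protein genes 34 rose and 2 fell (median 0.16). Of 440 zinc-finger ZNF genes 139 rose and 67 fell (median 0.11), and 40 were higher and 158 lower with KB05 than with KB02. Of 25 cholesterol genes 5 rose and 6 fell (median 0.07). Of 25 mitotic genes 1 rose and 13 fell (median -0.21), and MKI67 fell most, by 1.45.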

How the data were processed

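RNA was sequenced from 22Rv1 cells in 9 libraries, 3 each of DMSO, KB02 and KB05. The authors deposited 1 table of estimated counts for genes, without scaling. Salmon 1.3.0, DESeq2 1.30.1 and the builds hg38 and GRCh38.p13 are named in the submitters' processing notes. Those notes and the labels name no annotation release, strand setting or ribosomal RNA removal. In each library 20.3% to 24.3% of values were not whole and were rounded. Salmon splits reads of similar or overlapping genes by estimate.

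The rounded values went into edgeR 4.0.16 under R 4.3.3, with filterByExpr with a minimum count of 10, TMM factors, and 1 robust quasi-likelihood fit to the 9 libraries with the 3 groups and no block. KB05 against DMSO, KB05 against KB02 and KB02 against DMSO were contrasts of it, with Benjamini-Hochberg adjustment over 18379 genes and a threshold of 0.05. Every adjusted p is from this test unless another is named, and the SE is the log2 fold change divided by the square root of F. Replicates of each group differed by more than counting noise. A gene with enough counts only in the KB05 libraries passes this filter and can then be counted only as higher. A count of 3, the floor, is 0.129 to 0.195 CPM.

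Gene members and the 47 gene lists and 2 marker lists were chosen with earlier results of these data known. Named genes are the 20 largest rises, the 15 largest falls and the 12 largest per direction beyond both groups. All of these average a log2 CPM of 1 or more without overlap between libraries of the groups. The 8 largest CPM changes per direction were taken without these limits. Up to 4 called members per list were added, as were members that define a list. Other list members and genes outside the lists were chosen after their values were seen. Of 60232 identifiers, 41714 received a symbol. Exon counts and positions are from GENCODE 29. RefSeq windows were matched by symbol for 12504 tested genes. Alternatives were other scaling, filters, DESeq2 1.42.0, a replicate block, 2 groups only and each library left out. Libraries taken at 8 h were not analysed here. Some genes of the lists are not reported here by name.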

Additional observations from a re-analysis of the deposited data

How the results depend on the processing

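Among the counts of changed genes, the number of genes at least 2-fold higher with KB05 moved most, to 594 with a minimum count of 30 and 1119 with no filter. Leaving out each of the 9 libraries in turn gave 2818 to 3528 genes higher and 3356 to 3987 lower than DMSO, 874 to 980 and 483 to 526 at least 2-fold, 2987 to 4203 higher and 2967 to 3760 lower than KB02, and 888 to 1192 higher and 1144 to 1359 lower than both. DESeq2 called 3013 higher and 3792 lower than DMSO, and 927 higher than both. Without histone, HSP70 and mitochondrial genes, a setting chosen after seeing the data, the counts were 3406 and 3859. Any pairing of the samples by replicate number was weak. Correlations of same-numbered libraries ran from -0.0412 to 0.0813 and those of differently numbered libraries from -0.0658 to 0.0393. With a replicate block the counts were 3525 higher and 3951 lower than DMSO and 4119 and 3399 against KB02. Over the genes named by rank or as leading called list members, 3857 of the values against DMSO kept direction and side of the threshold and 30 lost the call. Against KB02 the numbers were 2723 and 89, and no direction turned. Genes chosen after their values were seen, such as SERPINH1, HES1, HEY1 and SOX2, were not part of this check. At this depth a level under 3 counts in a library, 0.129 to 0.195 CPM, could not be told from 0.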
